A study of Rattus norvegicus with 20 samples.

Results

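Secreted Wnt antagonists were followed in rat kidney under 2 calcineurin inhibitors. The family comprised 6 genes, Sfrp1, Sfrp2, Sfrp4, Frzb, Dkk2 and Dkk3, of 32907 genes listed in either deposited expression table (32545 in the cyclosporine A table and 32883 in the tacrolimus table). They were found by gene symbol in one table and carried to the other by Ensembl identifier, and all 6 were found in both. The family was chosen on measured values, because Sfrp2 falls with tacrolimus. Its values in that comparison are therefore a description, without p-values, and the comparison with cyclosporine A is the one that was tested.

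Bulk RNA sequencing was done on whole kidneys of male wild-type Wistar rats aged 10 to 12 weeks. All animals carried a subcutaneous osmotic minipump for 28 days. The saline vehicle group (n = 4) was the control for cyclosporine A (n = 4, aimed at a plasma trough of 3 mg/ml, as the labels write it). The DMSO/PEG vehicle group (25% DMSO and 75% PEG500, n = 6) was the control for tacrolimus (n = 6, aimed at a plasma trough of 3.5 ng/ml). Each drug has its own vehicle and its own table, so the difference between the drugs was not tested. The labels number the replicates without stating that each is a separate animal, so p-values measure the spread between these samples only.

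Levels are FPKM, fragments scaled to gene length and library depth, so they can be compared between genes. All 9 kidney epithelium markers (such as the proximal tubule transporter Slc34a1 and the thick ascending limb protein Umod) passed the expression filter in both tables. Libraries held 30468767 to 39358485 fragments assigned to genes. In the cyclosporine A table the mitochondrial share of these was 49.7 to 68.6% with saline vehicle and 80.2 to 90.8% with cyclosporine A, which left 10283971 to 17256748 and 2905839 to 6549282 nuclear fragments per library. In the tacrolimus table it was 10.5 to 13.7% with vehicle and 10.8 to 15.9% with drug. The cyclosporine A table was deposited relative to all fragments, mitochondrial ones included. It was therefore also rescaled here with median-of-ratios size factors, so that the typical gene has equal values across libraries, and these values are called rescaled FPKM. The tacrolimus table was deposited already scaled in that way.

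Wnt proteins are lipid-modified signals that bind Frizzled receptors and the co-receptors Lrp5 and Lrp6, and in the canonical branch they stabilise beta-catenin, which acts with TCF/LEF factors on target genes. Secreted frizzled-related proteins (Sfrp1, Sfrp2, Sfrp4 and Frzb) carry a Frizzled-like cysteine-rich domain and bind Wnt proteins outside the cell, while Dickkopf proteins such as Dkk2 act on Lrp5 and Lrp6. Both drugs inhibit calcineurin, the phosphatase that lets NFAT transcription factors enter the nucleus. Several of these antagonists are known from stromal cells and from fibrosis.

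A RefSeq promoter sequence (assembly GRCr8, 250 bases before to 50 after the gene start) was matched for 2 of the 6 genes, Sfrp2 and Frzb. Both are shown, to set the start region of Sfrp2 beside that of another antagonist. Each is written 5′ to 3′ on the strand of its gene, with matches to the NFAT core GGAAA, on either strand (TTTCC on the reverse), in capitals. The Sfrp2 window is chr2:171387286-171387585 on the plus strand and the Frzb window is chr3:85772047-85772346 on the minus strand.
Sfrp2: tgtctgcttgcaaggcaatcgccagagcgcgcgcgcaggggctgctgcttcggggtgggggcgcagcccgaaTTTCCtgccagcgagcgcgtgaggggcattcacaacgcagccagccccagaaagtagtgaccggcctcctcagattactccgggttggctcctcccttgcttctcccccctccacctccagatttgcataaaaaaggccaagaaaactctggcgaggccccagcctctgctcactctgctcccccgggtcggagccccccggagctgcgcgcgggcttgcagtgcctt
Frzb: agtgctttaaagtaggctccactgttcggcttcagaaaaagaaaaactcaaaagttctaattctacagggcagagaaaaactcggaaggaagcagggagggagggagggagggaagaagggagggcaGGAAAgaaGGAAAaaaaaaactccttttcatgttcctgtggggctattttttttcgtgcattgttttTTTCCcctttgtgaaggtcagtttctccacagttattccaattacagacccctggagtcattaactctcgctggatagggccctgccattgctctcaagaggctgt
The Sfrp2 window held 1 match to the NFAT core, on the reverse strand 178 bases before the start (position -178). The Frzb window held 3, at positions -123, -115 and -56. The core occurred in 62.7% of 33469 rat promoter windows of this length, so a match is common. The TCF/LEF core CTTTG, found on either strand in 53.8% of the windows, had 1 match in Frzb, at -50, and 0 in Sfrp2. The TATA box letters TATAAA, present in 14.2% of windows on either strand, had 0 matches in both. The Sfrp2 window was 65% G and C and the Frzb window 45.3%. These are matches of letters only, and no binding was measured.

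Sfrp2 was the antagonist with the large fall under tacrolimus. Sfrp2 (ENSRNOG00000009465, chromosome 2, 182723854 to 182731764, plus strand, positions as deposited on rn6) had a lowest, median and highest value of 5.84, 8.10 and 12 FPKM with vehicle and of 1.77, 2.12 and 3.04 FPKM with tacrolimus. The groups did not overlap: the highest of the 6 tacrolimus samples was well under the lowest of the 6 vehicle samples. The vehicle mean was 8.44 ± 1.99 FPKM (SD, n = 6). The tacrolimus mean was 2.28 ± 0.528 FPKM (SD, n = 6), which is 3.70-fold lower. The difference in log2(FPKM + 1), the scale of all log2 values here, was -1.51. Depth was ample for this gene, with 462 to 907 fragments per vehicle library and 141 to 282 per tacrolimus library. In whole kidney, fewer cells that express a gene and less RNA per cell cannot be told apart.

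Values of the other 3 frizzled-related genes overlapped between tacrolimus and its vehicle. Sfrp1 (ENSRNOG00000017783, chromosome 16, 73372007 to 73410777, minus strand), which binds Wnt proteins as Sfrp2 does, ran from 11.8 through a median of 13.0 to 14.7 FPKM with vehicle and from 10.5 through 13.7 to 18.4 with drug. The tacrolimus values enclosed the vehicle range, and the log2 difference was 0.071. Frzb (ENSRNOG00000007765, chromosome 3, 67635607 to 67668772, minus strand), also called Sfrp3 and first known from cartilage, ran from 14.4 through 17.8 to 23.0 FPKM with vehicle and from 17.9 through 22.5 to 28.7 with drug. Its tacrolimus samples tended to be higher but the groups overlapped, with 1 of 6 above every vehicle sample and a log2 difference of 0.32. Sfrp4 (ENSRNOG00000054957, chromosome 17, 47297489 to 47394328, minus strand), a frizzled-related protein also linked to phosphate handling, ran from 0.0467 through 0.169 to 0.313 FPKM with vehicle and from 0.0497 through 0.107 to 0.185 with drug. These rest on 8 to 51 and 9 to 33 fragments per library, the ranges overlapped, and the log2 difference was -0.089. At such values, far under the 1 FPKM added before taking logarithms, a change of Sfrp4 would hardly show on this scale. The mean of Sfrp4 was 1.67-fold lower with drug, and the difference was -0.39 with 0.1 FPKM added and -0.47 in the fit to fragment counts (voom).

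Both Dickkopf genes had overlapping values under tacrolimus and vehicle. Dkk2 (ENSRNOG00000011360, chromosome 2, 237148941 to 237241350, plus strand), which binds the Lrp5 and Lrp6 co-receptors, ran from 4.59 through 6.50 to 7.81 FPKM with vehicle and from 4.98 through 6.32 to 6.91 with drug, a log2 difference of -0.043. Dkk3 (ENSRNOG00000016343, chromosome 1, 176940693 to 176983045, minus strand), the divergent member of its family, ran from 1.18 through 1.38 to 1.69 FPKM with vehicle and from 0.967 through 1.45 to 2.08 with drug, a log2 difference of 0.049. For each Dickkopf gene the tacrolimus median lay inside the vehicle range.

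**Figure D1:**
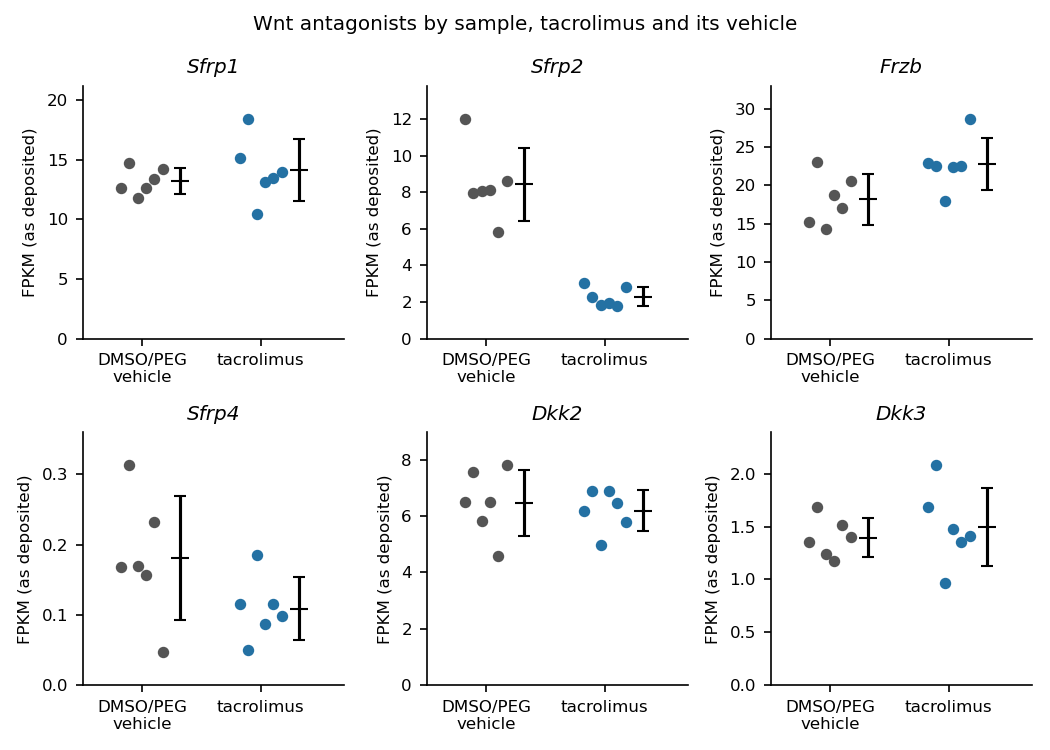
FPKM as deposited (vertical axes, linear from 0) of the 6 Wnt antagonists in DMSO/PEG vehicle (grey, n = 6) and tacrolimus (blue, n = 6) samples. Each point is a sample, and the bars are mean ± SD. Sfrp2 separates the groups, at 5.84 to 12 against 1.77 to 3.04 FPKM, and the other 5 genes overlap.

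Over all 15493 genes tested with tacrolimus, limma called 44 lower and 3 higher at an adjusted p under 0.05, and 1 of the 6 antagonists, Sfrp2, is among the 44 as a consequence of how the family was chosen. The share of all tested genes called lower was 0.284%, and the share with every tacrolimus sample below every vehicle sample was 0.671%. Nothing is read from the count for the family, since this comparison chose it.

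Sfrp2 moved down in the order of antagonist levels. With DMSO/PEG vehicle the order of mean FPKM was Frzb (18.1), Sfrp1 (13.2), Sfrp2 (8.44), Dkk2 (6.47), Dkk3 (1.40) and Sfrp4 (0.181). The ranges of neighbours overlapped among the first 4, and Dkk2, Dkk3 and Sfrp4 did not overlap with each other. With tacrolimus the order was Frzb (22.8), Sfrp1 (14.1), Dkk2 (6.20), Sfrp2 (2.28), Dkk3 (1.497) and Sfrp4 (0.108), with Sfrp2 now apart from Dkk2 and overlapping with Dkk3. Sfrp2 made up 13.7 to 25.1% of the summed FPKM of the 6 genes in vehicle samples and 3.86 to 6.20% in tacrolimus samples.

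With cyclosporine A, Sfrp2 was again lower in every drug sample, but the difference did not pass the adjusted threshold on rescaled FPKM, and few fragments lay behind it. The saline vehicle libraries (replicates 1 to 4) held 204, 57, 62 and 62 Sfrp2 fragments, or 1.28, 0.595, 0.554 and 0.512 rescaled FPKM. The cyclosporine A libraries held 1, 6, 22 and 5 fragments, or 0.0227, 0.0950, 0.403 and 0.159 rescaled FPKM. Vehicle replicate 1 stood above the other vehicle samples, drug replicate 3 stood above the other drug samples, and the groups did not overlap. The counting interval (95%, Poisson) of drug replicate 3 was 0.253 to 0.610 rescaled FPKM, which reaches into the vehicle range; such intervals cover counting error only.

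The mean of Sfrp2 was 0.734 ± 0.363 rescaled FPKM (SD, n = 4) with saline and 0.170 ± 0.165 (SD, n = 4) with cyclosporine A, a 4.32-fold lower mean (7.95-fold without cyclosporine A replicate 3). The log2 difference was -0.56 with a standard error of 0.15 (95% interval -0.90 to -0.21). The limma adjusted p over all genes was 0.127 (0.00483 unadjusted). The adjusted p ran from 0.111 to 0.252 over the alternatives tried. Because the levels are below 1 FPKM, this scale understates the change, and the fit to fragment counts (voom) gave -2.46.

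The share of Sfrp2 within the family does not depend on how a library is scaled. Sfrp2 made up 23.4, 17.7, 9.54 and 8.62% of the summed FPKM of the 6 genes in the saline libraries and 0.984, 2.77, 12.6 and 1.52% in the cyclosporine A libraries. Drug replicates 1, 2 and 4 lay below all vehicle samples by this share, and drug replicate 3 lay above vehicle replicates 3 and 4.

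Sfrp1 and Frzb overlapped between saline and cyclosporine A, and a single library held their highest values. Sfrp1 was 0.832, 0.616, 0.973 and 1.20 rescaled FPKM with saline and 0.341, 0.781, 0.452 and 2.45 with cyclosporine A. Its log2 difference was -0.025 (95% interval -0.63 to 0.58, limma adjusted p = 0.976). Drug replicates 1 and 3 were below all vehicle samples and drug replicate 4 was above all of them.

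Frzb was 2.22, 1.56, 3.13 and 3.12 rescaled FPKM with saline and 0.912, 1.40, 1.51 and 4.798 with cyclosporine A. Drug replicates 1, 2 and 3 were below all vehicle samples and drug replicate 4 was above them. The log2 difference of Frzb was -0.27 (95% interval -0.99 to 0.45, limma adjusted p = 0.734).

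Neither Dickkopf gene passed the test with cyclosporine A. Dkk2 was 1.04, 0.582, 0.972 and 0.926 rescaled FPKM with saline and 0.707, 1.08, 0.656 and 2.49 with cyclosporine A, a log2 difference of 0.19 (95% interval -0.32 to 0.69, limma adjusted p = 0.738). Dkk3 was 0.0702, 0.00976, 0.184 and 0.189 rescaled FPKM with saline and 0.117, 0.0592, 0.188 and 0.357 with cyclosporine A, from 2 to 49 fragments per library. Its log2 difference was 0.082 (95% interval -0.14 to 0.31, limma adjusted p = 0.741). Groups overlapped for both genes, 0 drug samples were below all vehicle samples, and cyclosporine A replicate 4 was again the highest sample. Dkk3 passed the filter, but at these values neither a rise nor a fall of moderate size could be seen.

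Sfrp4 was too low to judge in the cyclosporine A table and failed the filter there. Its saline libraries held 3, 0, 0 and 0 fragments and its cyclosporine A libraries 11, 1, 0 and 8. Drug replicates 1 and 4 had more fragments than any vehicle library, and drug replicate 3 had none. A count of 0 still allows 3 fragments, which is 0.0204 to 0.0258 rescaled FPKM in saline replicates 2 to 4 and 0.0452 in cyclosporine A replicate 3. The deposited FPKM of Sfrp4 in this table fits a gene length of 2847 bases, where 4591 are listed.

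With saline vehicle the order of mean rescaled FPKM was Frzb (2.51), Sfrp1 (0.904), Dkk2 (0.879), Sfrp2 (0.734), Dkk3 (0.113) and Sfrp4 (0.00386). Frzb was apart from the rest, Sfrp1, Dkk2 and Sfrp2 overlapped, and so did Dkk3 and Sfrp4. With cyclosporine A the order was Frzb (2.15), Dkk2 (1.23), Sfrp1 (1.01), Dkk3 (0.180), Sfrp2 (0.170) and Sfrp4 (0.107), and the ranges of all neighbours overlapped. 

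**Figure D2:**
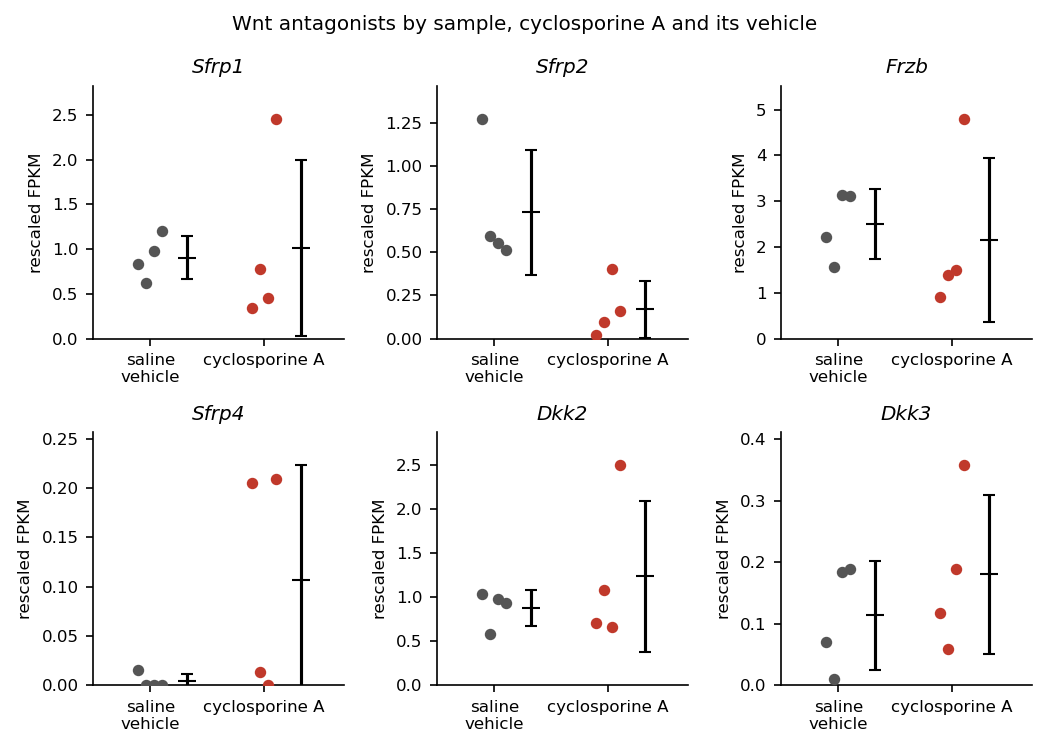
Rescaled FPKM (vertical axes, linear from 0) of the 6 Wnt antagonists in saline vehicle (grey, n = 4) and cyclosporine A (red, n = 4) samples, in the order of replicates 1 to 4. Points are samples and bars are mean ± SD, cut off at 0. Sfrp2 is below all vehicle samples in 4 of 4 drug samples, and drug replicate 4 is the highest point for Sfrp1 (2.45), Frzb (4.798), Dkk2 (2.49) and Dkk3 (0.357).

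Cyclosporine A replicate 4 had the largest mitochondrial share (90.8%) and the fewest nuclear fragments (2905839). Its summed fibroblast markers came to 65.8 rescaled FPKM, against 14.03 to 16.9 in the other 3 drug samples and 14.4 to 34.8 in the saline samples. That sum holds all 11 listed genes, of which 8 were tested, among them Dcn, Col3a1 and Pdgfra. The summed leukocyte and smooth muscle markers of this library were also high. The leukocyte sum came to 6.845, against 1.93 to 3.02 in the other drug samples and 3.01 to 4.05 with saline. The smooth muscle sum came to 30.4, which drug replicate 2 matched (31.6), against 13.7 to 16.4 with saline. Without this library the log2 difference was -0.32 for Sfrp1, -0.61 for Frzb, -0.051 for Dkk2 and 0.012 for Dkk3, and 0 of these passed the adjusted threshold. Dkk2 thus changed sign. The part of fibroblast, leukocyte or smooth muscle content or of depth in these values was not tested.

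Over all 13455 genes tested with cyclosporine A on rescaled FPKM, limma called 82, 44 higher and 38 lower, which is 0.609%, and it called 0 of the 5 antagonists tested. Of the 5, 1 (Sfrp2) had an unadjusted p under 0.05, against 16.2% of all tested genes. Sfrp2 was also the 1 of 5 with every drug sample below every vehicle sample, which held for 6.11% of all tested genes.

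On FPKM as deposited, 4 of the 5 antagonists tested were called lower, as most genes of the table were. Sfrp2 was lower by 0.95 on the log2 scale (difference -0.95, limma adjusted p = 0.000693), Frzb by 1.19 (difference -1.19, adjusted p = 0.00122), Sfrp1 by 0.68 (difference -0.68, adjusted p = 0.00563) and Dkk2 by 0.51 (difference -0.51, adjusted p = 0.0263). The call for Dkk2 was lost without the filter (adjusted p = 0.0717) and without saline vehicle replicates 1, 3 or 4 or cyclosporine A replicates 1 or 3 (adjusted p 0.0504 to 0.09002). Dkk3 did not pass (difference -0.10, adjusted p = 0.368). The share of all tested genes called lower was 80.9%. The median log2 difference was -0.68 over the 5 antagonists and -0.89 over all genes. Every drug sample was below every vehicle sample for 1 of the 5 (Sfrp2), against 67.9% of all genes. The mitochondrial share differed between these groups without overlap, and the same fragments on the rescaled scale gave 0 of 5 called.

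**Figure D3:**
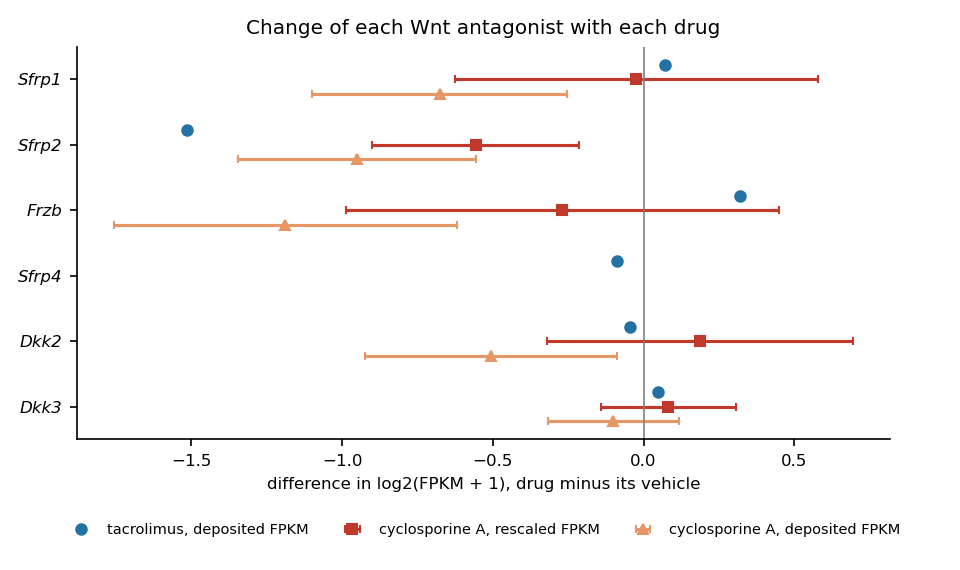
Difference in log2(FPKM + 1), drug minus its own vehicle (horizontal axis), of each Wnt antagonist, for tacrolimus (blue circles, no interval drawn because this comparison chose the family), and with 95% intervals for cyclosporine A on rescaled FPKM (red squares) and as deposited (orange triangles). Sfrp2 lies below 0 in each, at -1.51, -0.56 and -0.95, and Sfrp4 has no point for cyclosporine A because it failed the filter. Both cyclosporine A values come from the same samples, and as deposited 97.5% of all tested genes lie below 0.

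The antagonists followed other genes in different ways. Likeness was measured as Pearson's r of log2(FPKM + 1) after each group's mean was subtracted, for marker lists on the sum of the tested genes. It describes these libraries, which share depth and tissue sampling, and carries no p-value. Over the 12 libraries of the tacrolimus table, Sfrp1 was most like Porcn, the enzyme that attaches the lipid to Wnt proteins (r = 0.96, Spearman's rho 0.93), and Dkk3 (r = 0.95, rho 0.89), followed by Srpx2 (0.89). Without the 2 libraries farthest from the median of the other gene, r was 0.86 for Porcn and 0.80 for Dkk3. Sfrp2 was most like Ppm1l (0.86), Ints7 (0.83) and Sptlc2 (0.83). Sfrp2 had r between -0.30 and 0.37 with the other 5 antagonists. Frzb was most like Slc25a14 (0.95), RGD1309730 (0.90) and Extl2 (0.90). Dkk2 was most like Emilin1 (0.93), a gene with no proper symbol (0.92) and Nrp2 (0.92), and Sfrp4 was most like Wee1 (0.89), P2ry1 (0.86) and Psmb8 (0.85). Dkk3 after Sfrp1 was most like Porcn (0.91, rho 0.79) and Rpl21 (0.90). Without 2 libraries the r of Dkk3 with Porcn fell to 0.66.

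Over the 8 libraries of the cyclosporine A table, Frzb had r = 0.97 (rho 0.98) with the summed fibroblast markers and 0.90 without the 2 libraries farthest from the median. Sfrp1 had r = 0.91 (rho 0.83) with that sum, falling to 0.76 without those 2 libraries, and Dkk2 had r = 0.86 (rho 0.64), falling to 0.46. Dkk3 had r = 0.93 (rho 0.88) and then 0.87. Over the 12 libraries of the tacrolimus table these r were lower. There they were 0.47 for Frzb, 0.45 for Sfrp1, 0.49 for Dkk2 and 0.51 for Dkk3. In the cyclosporine A table Sfrp2 did not follow the fibroblast sum (r = -0.17, rho 0.24). The genes most like Sfrp1 were C1r (0.99), Amz2 (0.98) and Nup62 (0.98), and those most like Frzb were Nup62, Axl and the matrix protein gene Fn1 (0.99 each). The genes most like Dkk2 were Bgn (0.99), Sp140 (0.98) and Dclre1b (0.98), and those most like Dkk3 were Casc1 (0.99), Hoxb9 (0.98) and Cd74 (0.97). Those most like Sfrp2 were Copa (0.97), Hpcal1 (0.96) and Egf (0.95), a product of the distal nephron, and the r of Sfrp2 with the other tested antagonists was -0.08 to 0.03. Sfrp2 held only 1 to 22 fragments per cyclosporine A library. For the genes most like each antagonist here, neither rho nor r without 2 libraries was computed, so no link is read from them.

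Most adipocyte and fibroblast markers had lower means with tacrolimus, but limma called 0 of them and their sums overlapped between the groups. Of 7 adipocyte markers, 7 had a log2 difference below 0 (median -0.88, against -0.0003254 for all genes), and 5 had an unadjusted p under 0.05, against 8.58% of all genes tested. Their sum ran from 87.9 to 297 FPKM with vehicle and from 53.6 to 173 with tacrolimus, so the groups overlapped. Examples were the fatty acid carrier Fabp4 (115 ± 46.9 and 49.8 ± 31.9 FPKM, SD, n = 6 each) and the adipokine Retn (5.35 ± 1.46 and 1.57 ± 1.17, limma adjusted p = 0.0513). Of 11 fibroblast markers, 10 were below 0 (median -0.27), and 4 had an unadjusted p under 0.05, with sums of 217 to 284 and 173 to 262 FPKM. Smooth muscle marker sums were 62.7 to 93.9 and 61.3 to 82.9 FPKM. Of the 9 kidney epithelium markers 1 was called, the thiazide-sensitive cotransporter Slc12a3, which fell from 101.5 ± 5.50 to 43.3 ± 9.31 FPKM (SD, n = 6 each, limma adjusted p = 0.000159).

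Within groups Sfrp2 had r = 0.24 (rho 0.04) with the adipocyte sum and 0.33 (rho 0.13) with the fibroblast sum, and 0.20 and -0.05 without the 2 libraries farthest from the median. With the smooth muscle sum it was 0.44 (rho 0.38, and 0.32 without 2 libraries), and with the urothelium sum 0.27 (rho 0.16, and 0.43). The part of the content of these cell types in the fall of Sfrp2 was not tested.

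**Figure D4:**
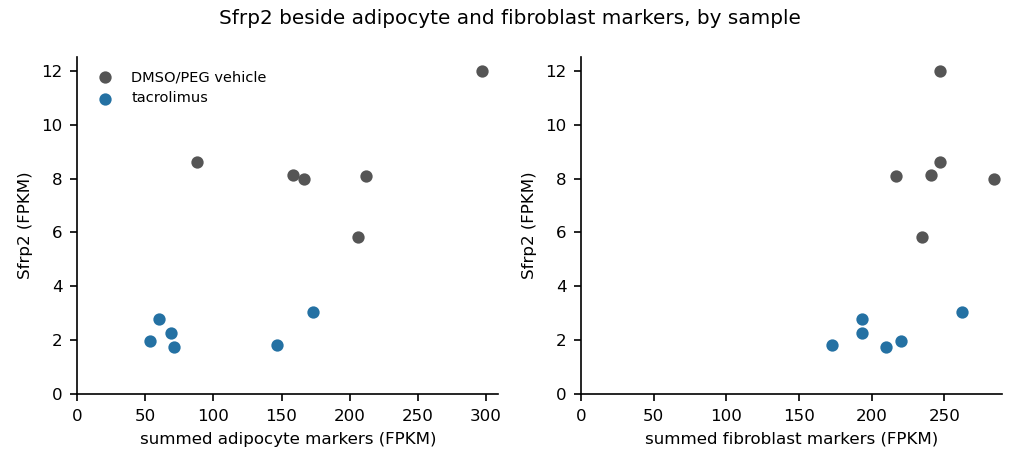
Sfrp2 (vertical axes, FPKM) against summed adipocyte markers (left) and summed fibroblast markers (right) in the 6 DMSO/PEG vehicle (grey) and 6 tacrolimus (blue) samples. Marker sums overlap between the groups, at 87.9 to 297 against 53.6 to 173 FPKM for adipocytes, while Sfrp2 does not.

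In the cyclosporine A table the adipocyte sum was 32.4 to 64.3 rescaled FPKM with saline and 34.1 to 66.8 with drug. Of 4 urothelium markers tested there, 4 had a log2 difference above 0 and 4 had an unadjusted limma p under 0.05 (16.2% of all tested genes did). Every drug sample was above every vehicle sample for 2 of the 4, against 4.81% of all tested genes. Of the 4, 1 was called, where 0.609% of all genes were. The sums of all 6 listed urothelium markers were 1.64 to 4.20 rescaled FPKM with saline and 7.29 to 18.0 with cyclosporine A. The gene called was the uroplakin Upk1a (1.30 ± 0.540 and 5.49 ± 0.854 rescaled FPKM, SD, n = 4 each, limma adjusted p = 0.0196). That call was lost without the filter (adjusted p = 0.0536), with a replicate block (0.0653) and without saline vehicle replicates 3 or 4 (0.0907 and 0.0952). Within groups, Sfrp2 had r = 0.57 (rho 0.62, 8 libraries) with the urothelium sum, and 0.83 without the 2 libraries farthest from the median. Of the 9 kidney epithelium markers, 5 had a log2 difference above 0 and 4 below (median 0.059), and 1 was called. An unadjusted p under 0.05 was found for 3 of the 9 (16.2% of all tested genes), all lower, and these 3 (Umod, Slc12a1 and Lrp2) had every drug sample below every vehicle sample, against 6.11% of all tested genes. The sum of the 9 ran from 539 to 826 rescaled FPKM with saline and from 408.2 to 549.5 with cyclosporine A, a small overlap. Slc12a3 had a difference of 0.27 (limma adjusted p = 0.808). Umod, the gene called, was at 327 ± 101 and 127 ± 38.2 rescaled FPKM (SD, n = 4 each, limma adjusted p = 0.0490). The Umod call was lost with any 1 library left out (adjusted p 0.0586 to 0.136), without the filter (0.115), with 0.1 FPKM added (0.0534) and with a replicate block (0.0857). The part of urothelium or tubule content in the antagonist values was not tested. Cyp11b2, the adrenal aldosterone synthase, was at 0 in every library of this table, but other adrenal cortex markers were detected. The sum of that list was 0.0739 to 0.599 rescaled FPKM with saline and 0.321 to 1.03 with cyclosporine A.

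The rest of the Wnt pathway was examined in lists of 87 further genes, of which 85 matched a row by name. With tacrolimus 67 of them were tested and limma called 0. Of these, 6 had an unadjusted p under 0.05 (8.58% of all tested genes did), 4 of them lower, and the median log2 difference was -0.0003626, close to that of all genes. By role, 0 was called of 4 other secreted antagonists, 11 Wnt ligands, 2 R-spondins, 20 receptors and co-receptors, 17 secretion and transduction genes and 13 target genes. The gene nearest to the threshold, named after its values were seen, was the ligand Wnt10a, at 0.242 ± 0.0905 FPKM with vehicle and 0.682 ± 0.230 with tacrolimus (SD, n = 6 each). Its 6 drug samples lay above all 6 vehicle samples, as for 0.303% of all tested genes, with a log2 difference of 0.43 and a limma adjusted p of 0.0600. Without tacrolimus replicate 4 it was called (difference 0.48, adjusted p = 0.0260). The target gene Ccnd1, a cyclin, was at 77.6 ± 4.27 and 64.3 ± 10.4 FPKM, with overlapping ranges and an adjusted p of 0.360.

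With cyclosporine A on rescaled FPKM, 52 of the 85 were tested and limma called 0. Of these, 5 had an unadjusted p under 0.05, against 16.2% of all tested genes, and the 5 were lower. The median log2 difference over the 52 was -0.080. Among 16 receptors and co-receptors, 15 had a difference below 0, against 50.1% of all tested genes. Their median was -0.18, against -0.0004825 for all genes. Of the 16, 4 had an unadjusted limma p under 0.05 (16.2% of all tested genes). Every drug sample was below every vehicle sample for 3 of the 16, against 6.11% of all tested genes. The receptor Fzd4 was at 6.61 ± 0.724 rescaled FPKM with saline and 4.91 ± 0.303 with cyclosporine A (SD, n = 4 each), with drug samples below all vehicle samples and a limma adjusted p of 0.160. The co-receptor Lrp6, which Dkk2 binds, was at 1.35 ± 0.409 and 0.829 ± 0.194, with an adjusted p of 0.273 and overlapping ranges. On FPKM as deposited 44 of the 52 were called lower, where 80.9% of all genes were.

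**Figure D5:**
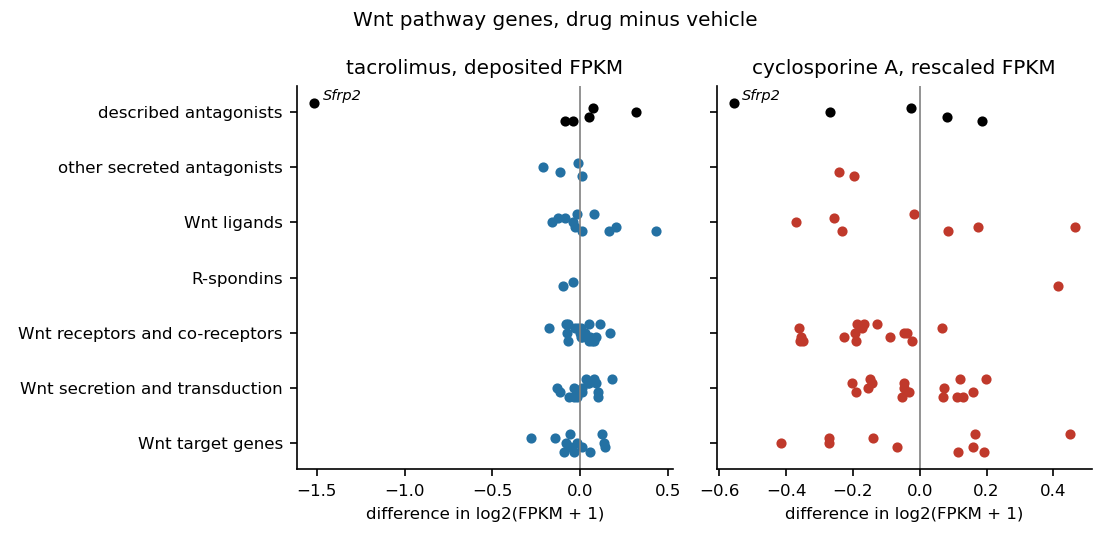
Difference in log2(FPKM + 1), drug minus vehicle (horizontal axes), of each tested gene in the Wnt pathway lists (rows) for tacrolimus (left, deposited FPKM) and cyclosporine A (right, rescaled FPKM). Each point is a gene, the described antagonists are black, and the horizontal scales differ. Sfrp2 is the leftmost point in both panels, at -1.51 and -0.56.

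Vehicle levels, saline and then DMSO/PEG, are given here for the 5 antagonists tested in both tables, with FPKM computed relative to nuclear fragments alone. Sfrp1 was at 3.63 and 15.1, Sfrp2 at 2.93 and 9.66, Frzb at 10.1 and 20.8, Dkk2 at 3.52 and 7.43, and Dkk3 at 0.456 and 1.598 on average. The tables were normalized separately and their libraries differ in mitochondrial share, so vehicle and table cannot be told apart and no test was made. The share of all genes that were lower with saline was not computed, so nothing particular to the antagonists is read from these levels.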

How the data were processed

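Whole-kidney RNA was sequenced in 20 samples. The authors deposited FPKM tables, 1 per drug with its vehicle. Per the submitters' processing notes, HISAT2 and the rn6 build were used; the counting program, annotation release and strand setting are not given in the sources used here, so reads of a gene and an antisense partner cannot be told apart.

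Fragments were recovered as FPKM times gene length times library unit, whole within 0.001. This held for 100% of values above 0 in the tacrolimus table and 74.1% in the cyclosporine A table, where 4445 of 18892 detected genes needed a shorter length. Deposited FPKM followed median-of-ratios size factors in the tacrolimus table and all assigned fragments in the cyclosporine A table, whose FPKM were therefore also rescaled with such factors.

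limma 3.58.1 (R 4.3.3) was fitted to log2(FPKM + 1), with 1 term, the group, and an empirical Bayes trend, over all tested genes of a table, with 2-sided p-values and Benjamini-Hochberg adjustment at 0.05. Genes were tested that had 15 or more fragments in all and reached 10 fragments (scaled to a library of median size) in a number of libraries equal to the size of the smaller group; the others were called too low to judge. The fit was tested on simulated data. Members and lists were chosen with earlier results of these data known. Named genes were the 6 members, pathway genes called, the 3 genes (mean at least 1 FPKM) most like each member, and genes of the marker lists. Wnt10a, Ccnd1, Fzd4 and Lrp6 fall outside this rule and were named after their values were seen. Alternatives were a pseudocount of 0.1, no filter, voom with quality weights on recovered fragments, a replicate block, scaling relative to nuclear fragments alone and leaving out each replicate. Libraries of a group differed by more than sampling noise (chi-square per degree of freedom at least 21.4 and 16.7), so each counted once.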

Additional observations from a re-analysis of the deposited data

Results flagged for a closer look

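In 5 of 36 groups of values (6 genes, 2 groups and 3 sets of values), the highest sample lay far from the others relative to the range of its group. Chance flags about 1 in 20 independent groups, but the cyclosporine A table enters both rescaled and as deposited, so the 5 are not independent and come from 3 pairs of a gene and a library. Saline vehicle replicate 1 was the high sample for Sfrp2, at 1.276 rescaled FPKM with the next at 0.595, and at 2.539 FPKM as deposited with the next at 0.8689. It was also the high sample for Sfrp4, at 0.01544 rescaled FPKM and 0.03071 as deposited, where the other 3 saline samples were at 0; this is 3 fragments. Cyclosporine A replicate 4 was the high sample for Frzb, at 4.798 rescaled FPKM with the next at 1.505. Without saline vehicle replicate 1 the log2 difference of Sfrp2 with cyclosporine A was -0.42, with a limma adjusted p of 0.252, on rescaled FPKM.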

How the results depend on the processing

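With cyclosporine A on rescaled FPKM, Sfrp2 kept its direction under each alternative tried, at -2.46 to -0.42, and stayed above the adjusted threshold. Its range with tacrolimus, -1.97 to -1.42, is a description only, since that comparison chose the family. Counts of called genes were less steady. With cyclosporine A on rescaled FPKM (82 genes) they were 1 without the filter, 281 with voom and 1 to 139 when a replicate was left out (2, 22, 3 and 1 without saline vehicle replicates 1 to 4, and 27, 18 and 139 without cyclosporine A replicates 1, 3 and 4). On deposited FPKM, scaling to nuclear fragments alone left 114 genes, 0 of the 5 antagonists and 0 other Wnt genes called. With tacrolimus (47 genes) voom called 121, and without tacrolimus replicate 4 there was 1 other Wnt gene called, Wnt10a (0 to 1 over all replicates left out). Differences near 0 changed sign. Scaled to nuclear fragments alone, Sfrp1 became 0.026 with cyclosporine A (from either set of values), and the deposited differences of Dkk2 and Dkk3 became 0.24 and 0.098. With a replicate left out, on rescaled FPKM Sfrp1 ran from -0.32 to 0.13 (above 0 without saline vehicle replicate 4 or cyclosporine A replicates 1 or 3) and Dkk2 from -0.051 to 0.31 (below 0 without cyclosporine A replicate 4). With tacrolimus, Sfrp1 ran from -0.0047 to 0.15 and Dkk3 from -0.014 to 0.12 (both below 0 without tacrolimus replicate 2), and Dkk2 from -0.12 to 0.0090 (above 0 without DMSO/PEG vehicle replicate 6 or tacrolimus replicate 3). The cause was not tested. Replicate numbers did not pair the samples (same-numbered samples correlated at -0.15 to 0.21 on rescaled FPKM and -0.15 to 0.18 in the tacrolimus table), and a replicate block gave 6, 10635 and 44 called genes on rescaled, deposited cyclosporine A and tacrolimus values, with 0, 4 and 1 antagonists; on rescaled FPKM the block also ended the calls of Umod (adjusted p = 0.0857) and Upk1a (0.0653). Depth limits Sfrp4 and Dkk3 in the cyclosporine A table.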
